A study of Mus musculus with 10 samples.

Results

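The Frizzled receptors of the mouse, Fzd1 to Fzd10, were described across 3 kinds of sample from embryos at embryonic day 5.5. The members are all probe sets of the MOE430A and MOE430B Affymetrix arrays whose annotation names exactly 1 of these genes. The rule found 10 of 18193 genes that a probe set names alone, with 26 of 45137 probe sets other than controls. MOE430A carried 17 of them, for 9 genes, and MOE430B carried 9, for 7 genes. No measured value entered the rule, but the members were chosen with earlier results of these data known. The study asked which genes differ between the side of the egg cylinder that carries the anterior visceral endoderm and the opposite side. The Ad fragment was microdissected to hold the fluorescent anterior visceral endoderm with the epiblast below it. The Pp fragment held proximal visceral endoderm and epiblast from the facing side, and its upper edge lay at the border with the extraembryonic part. Intact whole embryos made up the last kind. All embryos came from matings written in the labels as B6SJLF1×CerlP-GFP, carried the GFP reporter and had no treatment. On either array type, Ad and Pp had 2 arrays each and the whole embryo had 1, and fragment replicates are numbered 1 and 2 on MOE430A and 3 and 4 on MOE430B. The RNA was linearly amplified, and the number of embryos behind an array was not given in the sources used here. Nothing in the labels says that replicates came from separate embryos, so a p-value speaks only of the spread among these arrays, which may be technical. A fragment mixes at least 2 cell types, so in every result below fewer cells of a type and less RNA per cell cannot be told apart.

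Frizzleds are multi-pass membrane receptors whose extracellular cysteine-rich domain binds Wnt ligands. Together with the co-receptors Lrp5 and Lrp6 they recruit Dishevelled, which stabilises beta-catenin and turns on target genes; without these co-receptors, some Frizzleds act in planar cell polarity. In the early mouse embryo, Wnt signalling is needed for the primitive streak on the posterior side, while the anterior visceral endoderm is known for secreting Wnt antagonists such as Dkk1.

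Array medians lay between 591 and 645 signal units on MOE430A and between 56.7 and 61.0 on MOE430B. The scales of the array types differ, and each type was analysed alone. Of the 12 listed markers of the anterior visceral endoderm, 11 were measured above the low-signal filter on MOE430A. All 11 had a positive Ad minus Pp difference, beside 41.1% of all probe sets, and 5 passed the test, beside 0.162% as higher. The list was chosen with earlier results of these data known, so these counts are no independent check of the dissection. Over all 12 genes, including Gsc under the filter, the summed signal was 42181 and 36324 in the Ad arrays, against 18938 and 18985 in the Pp arrays. It was 22444 in the whole embryo. Amot alone read 14666 and 14121 in Ad, against 9873 and 10609 in Pp, and 11714 in the whole embryo. None of the 12 extraembryonic ectoderm markers passed the test between fragments, but their summed signal was 13820 and 13396 in the Ad arrays, against 13554 in Pp replicate 1 and 19542 in Pp replicate 2. The whole embryo had 19648. Pp replicate 2 therefore stood apart from the other 3 fragments in these markers.

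Fzd5 had the largest fitted difference between Ad and Pp fragments of the Frizzled probe sets above the filter. Fzd5 binds several Wnts and in mice is needed for the vessels of the yolk sac and placenta. On MOE430B its probe set 1455604_at read 3889 and 3184 in the Ad arrays, against 419 and 331 in the Pp arrays, and 648 in the whole embryo. Both Ad arrays lay far above the other 3, and the whole embryo lay between the fragments but close to Pp. The means were 3537 ± 498 in Ad and 375 ± 61.6 in Pp (SD, n = 2 each). On the scale of log2(signal + pseudocount) the difference was 3.13 ± 0.19 (SE), or 8.74-fold, with a limma adjusted p of 0.00482 and a 95% interval of 2.67 to 3.58. It ranked 4 by p among 13506 probe sets, and with all probe sets in the fit the adjusted p was 0.0584. Without Ad replicate 3 the log2 difference was 2.98 and the adjusted p was 0.134, and without Ad replicate 4 these were 3.28 and 0.0880. With Pp replicate 3 or 4 left out it passed, but there the residual spread came from the Ad pair alone.

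The MOE430A probe set of Fzd5, 1422937_at, read 1077 and 911 in the Ad arrays, against 632 and 573 in the Pp arrays, and 609 in the whole embryo. Both Ad arrays were again above the other 3, while the whole embryo fell between the Pp arrays. The log2 difference between Ad and Pp was 0.48 ± 0.086 (SE), or 1.39-fold, and missed the threshold with a limma adjusted p of 0.178. With either Pp array left out it passed, but in such a fit the residual spread comes from the Ad pair alone, so it cannot settle the call. The range of calls over all probe sets with 1 replicate left out is given below. The Fzd5 probe sets of both array types thus had the same sign. Their fitted sizes cannot be compared directly, because the pseudocount was 248 on MOE430A and 10.5 on MOE430B. Ratios of mean deposited signal, Ad over Pp, use no pseudocount and were 1.65 on MOE430A and 9.43 on MOE430B. The position of either probe set within the transcript was not used here.

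To show the sequence next to which Fzd5 is transcribed, the 250 bases before its annotated start are printed from RefSeq, build GRCm38.p6, at chr1:64737751-64738000 on the minus strand, 5′ to 3′. Capitals mark matches to motifs searched on both strands, so that the reverse complement of each also counts. The GC box was GGGCGG and the CCAAT box was spelled as its name. The core bound by OTX factors was TAATCC. The TATA core was spelled TATAAA.
Fzd5: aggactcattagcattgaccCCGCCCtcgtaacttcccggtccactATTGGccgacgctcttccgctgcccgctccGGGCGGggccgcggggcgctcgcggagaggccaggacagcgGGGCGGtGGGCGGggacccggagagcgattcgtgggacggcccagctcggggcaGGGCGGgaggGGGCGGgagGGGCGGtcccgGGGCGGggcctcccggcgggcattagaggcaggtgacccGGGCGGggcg
The window held 9 GC boxes and 1 CCAAT box, which did not overlap, and neither of the other motifs.

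Fzd8, the closest relative of Fzd5 in the family, passed the same test on MOE430A. Its probe set 1423348_at read 1129 and 925 in the Ad arrays, against 396 and 410 in the Pp arrays, and 479 in the whole embryo. Both Ad arrays were above all others, and the whole embryo lay just above the Pp arrays. The means were 1027 ± 144 in Ad and 403 ± 10.03 in Pp (SD, n = 2 each), and the Pp mean was under the filter signal of 464. The log2 difference was 0.90 ± 0.090 (SE), or 1.86-fold, with a limma adjusted p of 0.0416 and a rank of 23 by p. Its size depended on the pseudocount: 1.26 with none and 0.72 with a larger one, where the adjusted p was 0.0668. With all probe sets in the fit the adjusted p was 0.0756. Fzd8 missed the threshold without Ad replicate 1 and without Ad replicate 2. With either Pp array left out it passed, but there the residual spread came from the Ad pair alone.

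The other Fzd8 probe set, 1445815_at on MOE430B, lay under the filter, which used the mean of log2(signal + pseudocount), and was not part of the test. It read 160.2 and 114 in the Ad arrays, against 9.16 and 2.43 in the Pp arrays, and 21.9 in the whole embryo. Both Ad arrays were above the MOE430B filter signal of 37.2, and the other 3 were below it. With no filter its log2 difference was 3.14 ± 0.28 (SE) with a limma adjusted p of 0.149, a size that depends on the pseudocount. In both Fzd8 probe sets the whole embryo stood near Pp, at 12.3% and 12.2% of the way up to the Ad mean. For the Fzd5 probe sets this position was 1.66% on MOE430A and 8.64% on MOE430B. The anterior visceral endoderm markers, whose sums are given above, also had higher signal in Ad, and their part in the Fzd5 and Fzd8 differences was not tested.

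**Figure D1:**
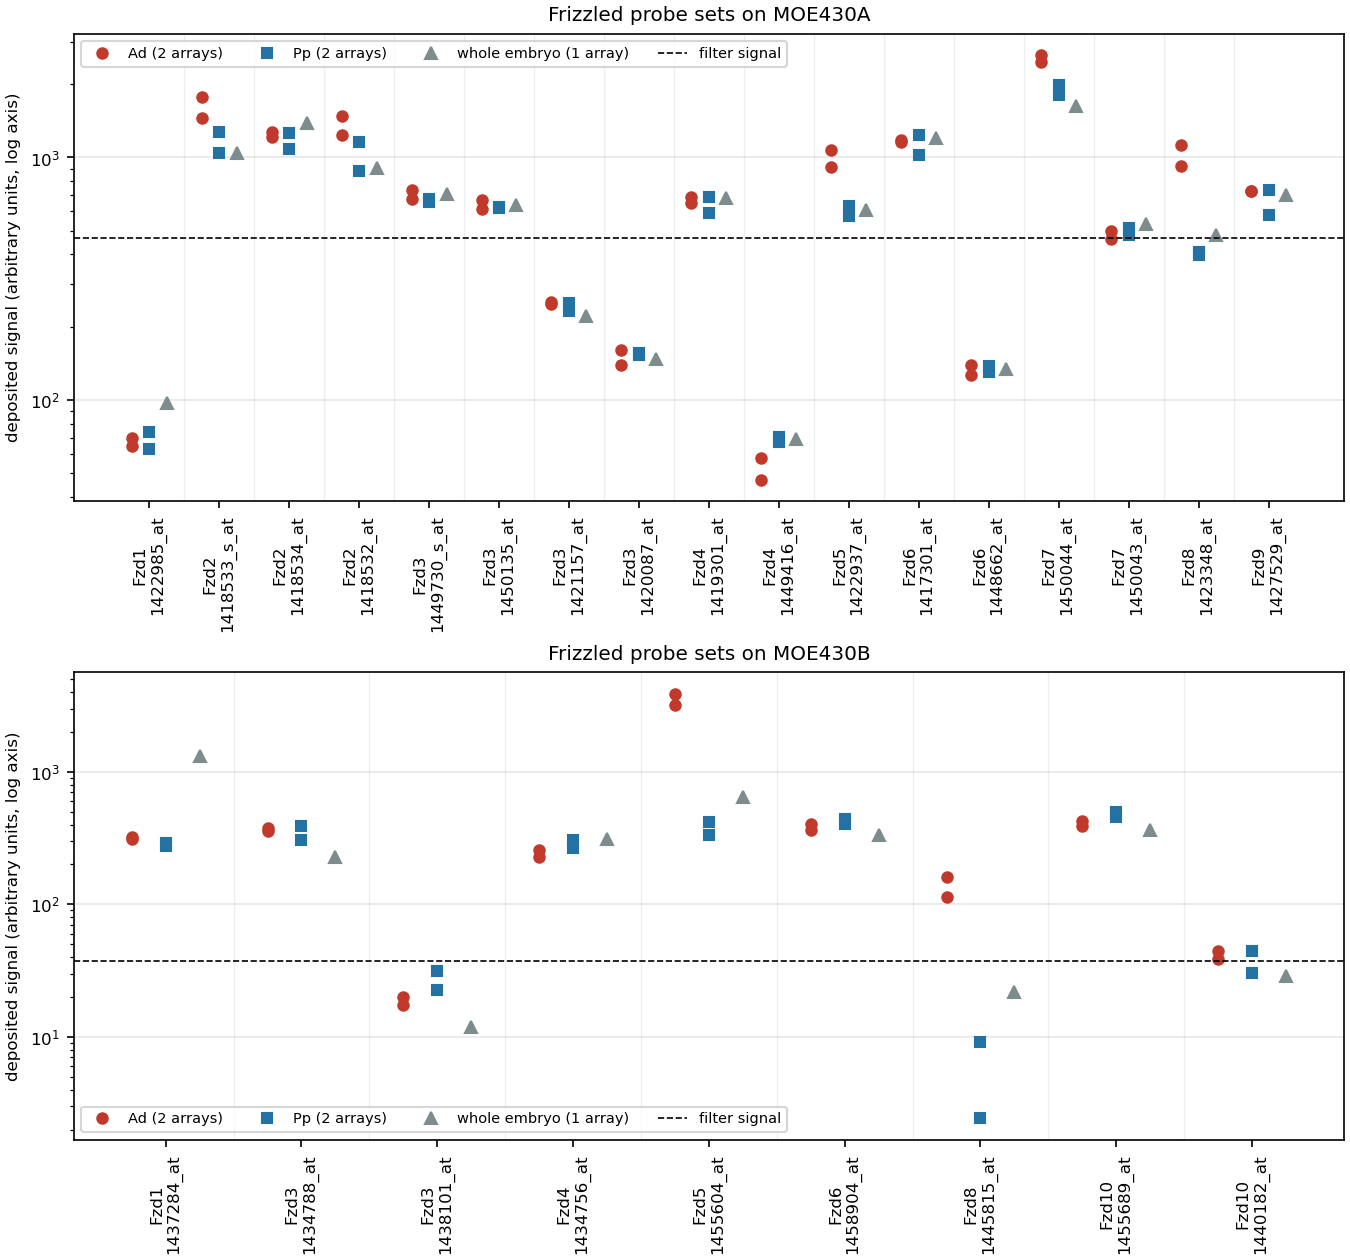
Deposited signal of the Frizzled probe sets (log axis, arbitrary units) on MOE430A and MOE430B, with 1 point per Ad, Pp and whole-embryo array. The Ad points of Fzd5 and Fzd8 stand above their Pp and whole-embryo points on both array types, and the whole-embryo point of Fzd1 on MOE430B, at 1327, stands above its 4 fragment points.

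Fzd1, Fzd2 and Fzd7 form the subfamily known in the mouse for shared roles in neural tube closure, and Fzd7 is also the best known Frizzled of pluripotent stem cells. The Fzd7 probe set 1450044_at on MOE430A read 2473 and 2645 in the Ad arrays, against 1982 and 1808 in the Pp arrays, and 1624 in the whole embryo. Ad and Pp did not overlap, and all 4 fragments were above the whole embryo. Its Ad minus Pp log2 difference was 0.32 ± 0.077 (SE), or 1.25-fold, with a limma adjusted p of 0.276. With 1 array left out, this difference passed only without Pp replicate 1, in a fit whose residual spread came from the Ad pair alone. The second Fzd7 probe set, 1450043_at, read 459 and 499 in Ad, against 511 and 481 in Pp, and 533 in the whole embryo. Here the fragments overlapped and lay below the whole embryo, with an Ad minus Pp log2 difference of -0.10 (adjusted p = 0.598), so the Fzd7 probe sets disagreed in sign.

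Fzd2, which in mammalian cells mediates Wnt5a responses, had 3 probe sets above the filter on MOE430A. The probe set 1418533_s_at read 1458 and 1770.3 in the Ad arrays, against 1275 and 1042 in the Pp arrays, and 1044 in the whole embryo. The probe set 1418532_at read 1237 and 1488 in Ad, against 1155 and 879 in Pp, and 909 in the whole embryo. In both, Ad lay above Pp without overlap and Pp replicate 2 was the lowest of all arrays. Their log2 differences were 0.34 and 0.28, with limma adjusted p-values of 0.389 and 0.459. With 1 array left out they passed only without Pp replicate 1, in a fit whose residual spread came from the Ad pair alone. The third, 1418534_at, read 1218 and 1274 in Ad, against 1257 and 1079 in Pp, and 1393 in the whole embryo. Its fragments overlapped, and its log2 difference was 0.012.

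Fzd1 on MOE430B showed a different profile. Its probe set 1437284_at read 311 and 324 in the Ad arrays, against 292 and 276 in the Pp arrays, and 1327 in the whole embryo. The 4 fragments were close to each other, with Ad just above Pp, and the whole embryo stood far above them. The Ad minus Pp log2 difference was 0.080 with a limma adjusted p of 0.867. The MOE430A probe set of Fzd1, 1422985_at, was under the filter, with 64.99 and 69.6 in Ad, against 63.2 and 73.9 in Pp, and 97.1 in the whole embryo.

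Fzd3 and Fzd6 act in planar cell polarity in the mouse, Fzd3 in the guidance of axons and Fzd6 in the patterning of hair. On MOE430A the Fzd3 probe set 1449730_s_at read 733 and 677 in Ad, against 676 and 654 in Pp, and 707 in the whole embryo. The probe set 1450135_at read 669 and 613 in Ad, against 618 and 624 in Pp, and 634 in the whole embryo. On both, the arrays stayed within a narrow range, with log2 differences between Ad and Pp of -0.0078 and -0.036. On MOE430B the Fzd3 probe set 1434788_at read 374 and 357 in Ad, against 391 and 304 in Pp, and 229 in the whole embryo. The fragments overlapped, and all 4 lay above the whole embryo. The remaining Fzd3 probe sets were under the filter, at 223 to 254 and 139 to 160.4 on MOE430A and at 11.8 to 31.2 on MOE430B.

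Fzd6 read 1178 and 1158 in the Ad arrays, against 1027 and 1235 in the Pp arrays, and 1203 in the whole embryo, on the MOE430A probe set 1417301_at. On MOE430B its probe set 1458904_at read 407 and 363 in Ad, against 406 and 441 in Pp, and 336 in the whole embryo. Ad and Pp overlapped on both, and the log2 differences of -0.026 and -0.21 missed the threshold. A further Fzd6 probe set on MOE430A was under the filter, at 127 to 139.

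Fzd4, the receptor for Norrin in the vessels of the mouse retina, read 686 and 649 in Ad, against 589.8 and 689.9 in Pp, and 683 in the whole embryo, on the MOE430A probe set 1419301_at. Its MOE430B probe set 1434756_at read 226 and 256 in Ad, against 268 and 307 in Pp, and 311 in the whole embryo. The fragments overlapped on MOE430A, while on MOE430B both Ad arrays were below both Pp arrays. The MOE430B log2 difference was -0.32 ± 0.14 (SE), with a limma adjusted p of 0.513. A second MOE430A probe set was under the filter, at 47.0 to 70.5.

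Fzd9, known in the mouse for roles in bone formation and B cell development, read 724 and 724 in Ad, against 737 and 581 in Pp, and 698 in the whole embryo, on MOE430A. The fragments overlapped, with Pp replicate 2 the lowest array. Fzd10, a Frizzled of the developing neural tube and limb, had its probe set 1455689_at on MOE430B at 425 and 393 in Ad, against 494 and 457 in Pp, and 363 in the whole embryo. Both Ad arrays were below both Pp arrays and above the whole embryo. The Ad minus Pp log2 difference of Fzd10 was -0.29 ± 0.14 (SE), with a limma adjusted p of 0.547. Its other probe set was under the filter, at 28.7 to 44.8.

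In all, 18 of the 26 Frizzled probe sets passed the low-signal filter, 12 on MOE430A and 6 on MOE430B, and together they covered all 10 genes. On MOE430A 1 of 12, that of Fzd8, passed the test in Ad against Pp and was higher in Ad, beside 0.162% of all probe sets past it as higher. Both Pp arrays of that probe set lay under the filter signal, and the call ended with no filter, with the 60th percentile filter, which removed the probe set, and with the larger pseudocount. On MOE430B 1 of 6, that of Fzd5, passed and was higher in Ad, beside 0.104%. No Frizzled probe set passed as lower in Ad by limma, beside 0.00737% of all on MOE430A and 0.0074% on MOE430B. An unadjusted p under 0.05 was found for 4 of 12 on MOE430A, beside 11.7%, and for 1 of 6 on MOE430B, beside 10.4%. The median log2 difference was 0.024 over the 12 on MOE430A, beside -0.027 over all probe sets there, and -0.10 over the 6 on MOE430B, beside -0.012. The 15 probe sets of the other 8 genes had log2 differences of -0.32 to 0.34 and limma adjusted p-values of 0.276 to 0.995. The plot of fitted differences shows Fzd5 on MOE430B apart from a group of probe sets near 0.

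Both Ad signals lay above both Pp signals in 6 of 12 Frizzled probe sets on MOE430A, beside 32.3% of all probe sets, and in no case did both lie below, beside 12.2%. The 6 are probe sets and not separate receptors, since both 1418533_s_at and 1418532_at measure Fzd2. They also include Fzd3 1449730_s_at, whose fitted log2 difference after centring was -0.0078. On MOE430B Ad lay above in 2 of 6, beside 28.8%, and below in 2 of 6, beside 14.6%. Array medians on MOE430A were higher in Ad, at 626 and 608, than in Pp, at 597 and 591, and these signals were taken before centring. On MOE430A no Frizzled probe set passed the threshold without Ad replicate 1 or 2. More passed without a Pp array, but there the residual spread came from the Ad pair alone. On MOE430B none passed without Ad replicate 3 or 4.

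**Figure D2:**
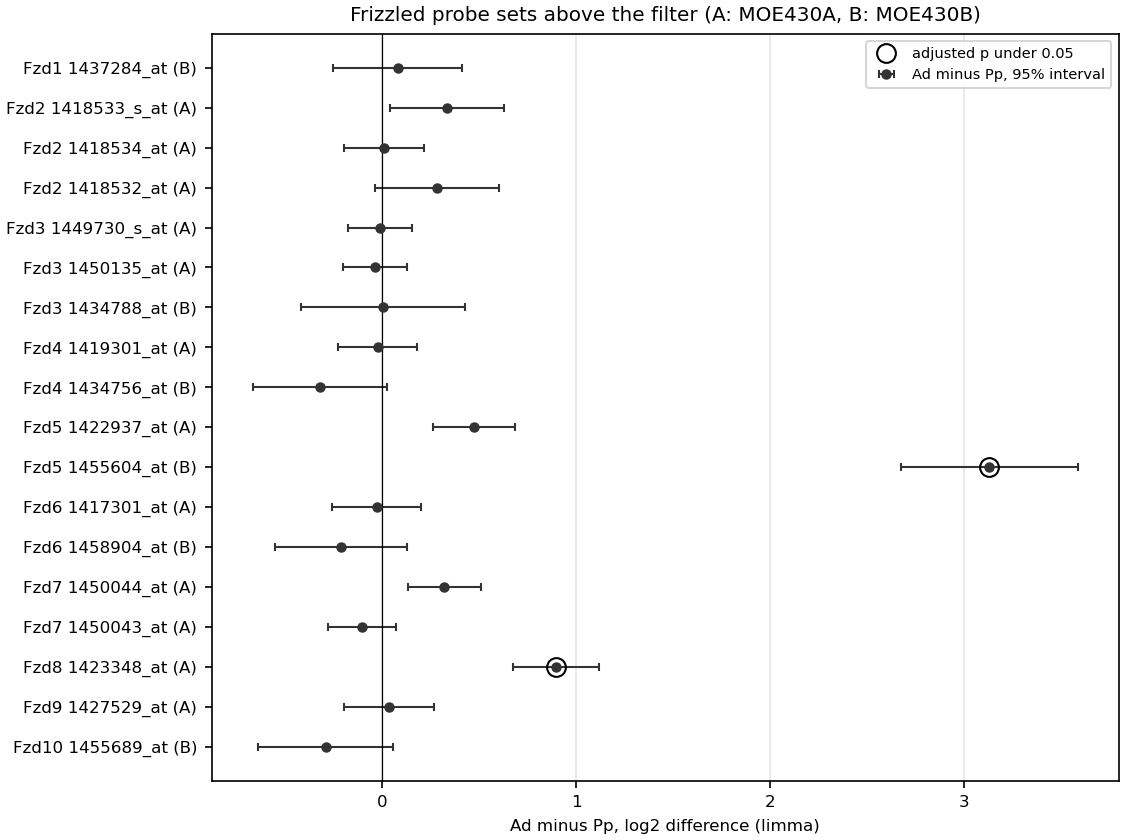
Fitted Ad minus Pp log2 difference of the 18 Frizzled probe sets above the filter, with 95% intervals, and marked by whether the limma adjusted p was under 0.05. Fzd5 on MOE430B, at 3.13, and Fzd8 on MOE430A, at 0.90, passed, and all probe sets of the other 8 genes lay between -0.32 and 0.34. The array types had different pseudocounts, so sizes cannot be compared directly between them.

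**Figure D3:**
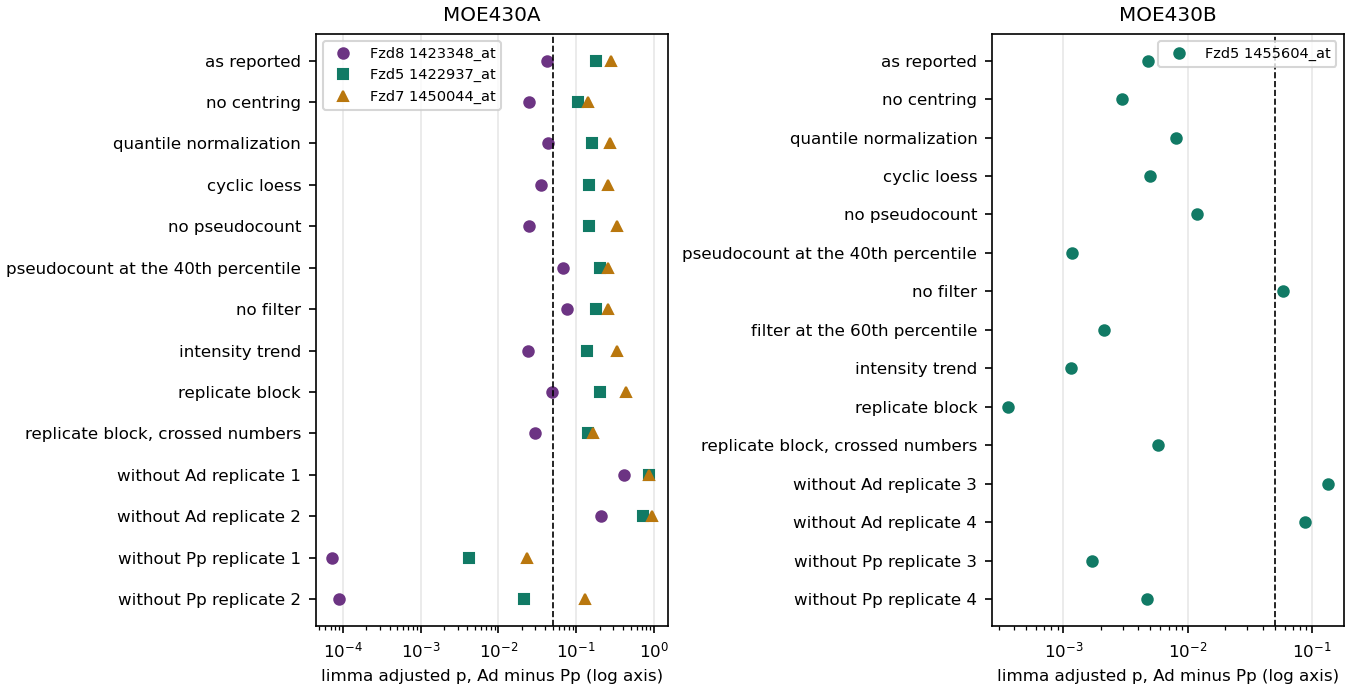
Limma adjusted p (log axis) of Fzd8, Fzd5 and Fzd7 on MOE430A and of Fzd5 on MOE430B in Ad against Pp, by processing alternative down the page, with the threshold of 0.05 as a dashed line. Fzd8 on MOE430A and Fzd5 on MOE430B lie left of the line as reported, and right of it when an Ad array was left out or no filter was used.

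Against the whole-embryo array, the fragments differed at other Frizzleds. With Ad and Pp averaged, Fzd7 probe set 1450044_at was higher in the fragments, at 2227 ± 396 (SD, n = 4), against 1624 in the whole embryo. The log2 difference was 0.47 ± 0.086 (SE), or 1.38-fold, with a limma adjusted p of 0.0297, which became 0.0984 without Ad replicate 1 and 0.133 without Ad replicate 2. Epiblast markers moved the same way: 5 of 8 measured on MOE430A were higher in the fragments, beside 4.6% of all probe sets. Sums over all 10 listed epiblast genes were 35438 and 37361 in Ad, 37696 and 33144 in Pp, and 26351 in the whole embryo. Other lists moved this way too, beside the same 4.6%. Of the anterior visceral endoderm markers 6 of 11 were higher, and of the visceral endoderm markers 3 of 15. In both lists 0 were lower, beside 5.18% of all probe sets. The part of these markers in the Fzd7 difference was not tested. Fzd7 1450044_at was 1 of 12 Frizzled probe sets on MOE430A, beside 4.6% of all probe sets past the test as higher. The other Fzd7 probe set, 1450043_at, had a log2 difference of -0.0070 (limma adjusted p = 0.963). Fzd1 on MOE430B was lower in the fragments, at 301 ± 21.3 (SD, n = 4), against 1327 in the whole embryo. The log2 difference was -2.11 ± 0.15 (SE), or 4.32-fold lower, with a limma adjusted p of 0.00195 that stayed under 0.05 with any 1 fragment array left out. This was 1 of 6 on MOE430B, beside 1.81% of all as lower. The whole embryo was a single array, assumed to vary like the fragments.

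Markers of other tissues moved with Fzd1, first those of maternal decidua, blood vessel and blood. On MOE430B 5 of the 14 listed genes were annotated. All 3 above the filter passed the test as lower in the fragments, beside 1.81% of all probe sets. The summed signal of the list was 244 and 348 in Ad, 370.0 and 279.9 in Pp, and 5251 in the whole embryo. For Hand2, a transcription factor of the decidual stroma, the signals were 110.2 and 144 in Ad, 140.4 and 135 in Pp, and 2223 in the whole embryo. On MOE430A 4 of 10 measured genes of the list passed as lower in the fragments, beside 5.18% of all probe sets. The other direction was seen for 3, Des, Pgr and Esr1, at log2 differences of 0.12, 0.065 and 0.15. Pgr and Esr1 thus differed in sign between array types, at -3.41 and -5.11 on MOE430B. Hand2 on MOE430A, under the filter, read 109 and 134 in Ad, 125 and 77.6 in Pp, and 156 in the whole embryo. Sums over all 14 genes were 8870.5 and 9096 in Ad, 8940.2 and 8366 in Pp, and 25473 in the whole embryo. Of the ectoplacental cone and giant cell markers, 3 of 4 measured on MOE430A were lower in the fragments, beside 5.18% of all probe sets. Sums over the 5 annotated genes were 5103 and 4813 in Ad, 4784 and 5846 in Pp, and 12850.0 in the whole embryo. Of the parietal endoderm markers, 4 of 7 were lower there, beside the same 5.18%. Sums over all 8 genes were 15954 and 15567 in Ad, 11128 and 11933 in Pp, and 21883 in the whole embryo. On MOE430B, the array type of the Fzd1 call, 0 of 2 measured parietal endoderm markers passed as lower, beside 1.81% of all probe sets. They were Sparc and Lamb1, at log2 differences of -0.25 and -0.025. The ectoplacental cone and giant cell list had 0 annotated genes there. The part of these markers in the Fzd1 difference was not tested.

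Each fragment was also set against the whole embryo by itself, in comparisons that share that array and were added after the data had been seen. In Ad, 3 of 12 Frizzled probe sets on MOE430A were higher than in the whole embryo, beside 3.9% of all probe sets past the test as higher. They were Fzd8, 1.80-fold with a limma adjusted p of 0.0117, Fzd7 1450044_at, 1.55-fold with 0.0182, and Fzd5, 1.49-fold with 0.0307. The other Fzd7 probe set, 1450043_at, had a log2 difference of -0.058 (limma adjusted p = 0.732). Without Ad replicate 1 all 3 missed the threshold, at 0.0811 for Fzd8, 0.105 for Fzd7 and 0.151 for Fzd5, and without Ad replicate 2 only Fzd8 passed, at 0.0453. On MOE430B Fzd5 was 5.19-fold higher in Ad than in the whole embryo, with a limma adjusted p of 0.00594, and Fzd1 was 4.20-fold lower, with 0.00319. Each was 1 of 6, beside 0.622% of all as higher and 1.61% as lower. Without Ad replicate 3 or 4 neither passed, with adjusted p-values of 0.0733 and 0.0576 for Fzd5 and 0.0623 and 0.0576 for Fzd1.

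In Pp, none of the 12 Frizzled probe sets on MOE430A passed the limma test against the whole embryo, beside 6.26% of all probe sets, and 1 had an unadjusted p under 0.05, beside 25.7%. On MOE430B Fzd1 alone passed of 6, beside 1.55% of all as lower, and was 4.45-fold lower in Pp with a limma adjusted p of 0.00334. The Pp minus whole-embryo log2 difference of Fzd5 on MOE430B was -0.75 ± 0.23 (SE), with an adjusted p of 0.207. That of Fzd8 on MOE430A was -0.047, with an adjusted p of 0.815. On these probe sets the order of signal was Ad, then the whole embryo, then Pp, and the last 2 did not differ past the test. On the MOE430A probe set of Fzd5 the whole embryo lay between the Pp arrays, and its Pp minus whole-embryo log2 difference was 0.10 (limma adjusted p = 0.574).

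**Figure D4:**
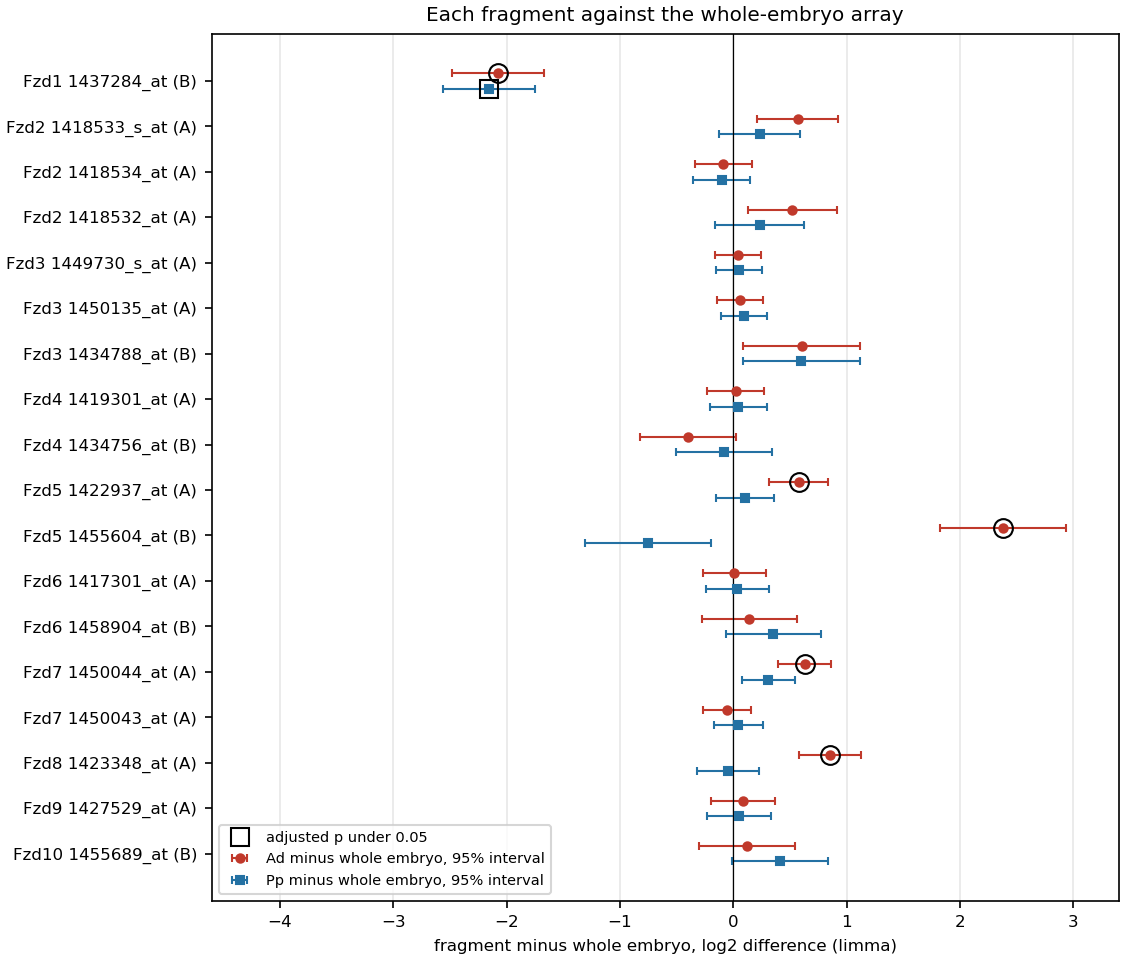
Fitted log2 difference of Ad and of Pp from the whole-embryo array for the 18 Frizzled probe sets above the filter, with 95% intervals. Fzd1 on MOE430B lies below 0 in both fragments, at -2.07 in Ad and -2.15 in Pp, while Fzd5 on MOE430B lies at 2.38 in Ad and -0.75 in Pp.

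Because a probe set each of Fzd1 and Fzd7 passed the test between fragments and whole embryo, with opposite signs, their 250 bases before the annotated start are shown together, from RefSeq, build GRCm38.p6, 5′ to 3′ on the strand of the gene. Fzd1 lies at chr5:4758217-4758466 on the minus strand and Fzd7 at chr1:59481897-59482146 on the plus strand. Capitals mark the same motifs as for Fzd5.
Fzd1: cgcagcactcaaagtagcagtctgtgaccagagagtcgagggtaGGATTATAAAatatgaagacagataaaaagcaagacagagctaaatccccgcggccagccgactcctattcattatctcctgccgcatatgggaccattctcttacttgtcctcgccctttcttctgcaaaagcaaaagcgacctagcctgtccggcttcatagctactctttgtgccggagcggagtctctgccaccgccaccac
Fzd7: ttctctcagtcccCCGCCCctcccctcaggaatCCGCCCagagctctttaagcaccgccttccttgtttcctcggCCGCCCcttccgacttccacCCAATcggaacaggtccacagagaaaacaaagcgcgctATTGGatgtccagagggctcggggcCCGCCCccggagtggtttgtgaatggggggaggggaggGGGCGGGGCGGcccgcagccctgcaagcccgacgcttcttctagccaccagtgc
The Fzd1 window held no GC box and no CCAAT box, but 1 OTX core and 1 TATA core that overlapped by 2 bases. The Fzd7 window held 6 GC boxes and 2 CCAAT boxes, with 1 base shared between matches. The table had entries for 6 of the 10 genes, and Fzd2, Fzd3, Fzd6 and Fzd8 had none. A GC box was found in 5 of these 6 Frizzled windows, beside 32.7% of the 32851 windows of this length, and a CCAAT box in 3 of 6, beside 33.8%. The OTX core was found in 1 of 6, beside 6.25%, and the TATA core in 1 of 6, beside 12.4%. The TCF core ATCAAAG, the motif of the factors that work with beta-catenin, was in 0 of 6, beside 3.21%. A match is a description of the letters and not a bound site.

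The genes whose log2 profile over the 5 arrays of a type lay closest to a Frizzled that passed between fragments were ranked by the root mean square difference from it. Closest to Fzd8 on MOE430A were Gpc4 at 0.0828, Ddc at 0.0891, Chga at 0.0965, Pga5 at 0.101 and Porcn at 0.114. Gpc4 is a cell surface heparan sulfate proteoglycan and Porcn is the acyltransferase that Wnts need for secretion. Gpc4 read 9179 and 7874 in Ad, against 4486 and 3823 in Pp, and 4895 in the whole embryo. Closest to Fzd5 on MOE430B were Speer4cos at 0.445, Kcnj5 at 0.449, Lhx1os at 0.498, Irs4 at 0.523 and Dact2 at 0.581. Dact2 belongs to a family of Dishevelled-binding proteins, and read 579 and 378 in Ad, against 102 and 116.6 in Pp, and 155 in the whole embryo. The Fzd5 neighbours had smaller Ad minus Pp log2 differences than the 3.13 of Fzd5, with 2.21 for Kcnj5 and 1.93 for Dact2. The profiles rest on 5 arrays of 3 kinds of sample.

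**Figure D5:**
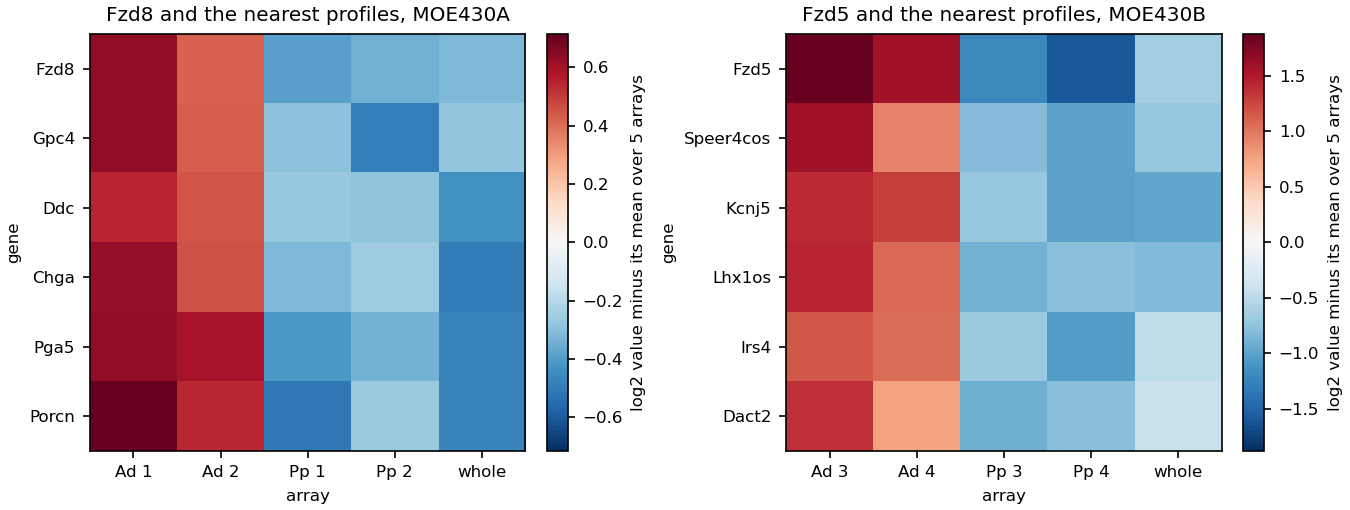
Heat maps of the log2 value of Fzd8 on MOE430A and of Fzd5 on MOE430B, each above its 5 closest genes, with 1 column per Ad, Pp and whole-embryo array; colour gives the difference from a gene's own mean over the 5 arrays, red above and blue below. Every gene shown is above its mean in the Ad arrays and below it in the Pp and whole-embryo arrays. Because the genes were chosen for closeness to these profiles, the shared pattern is no separate result.

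The other genes of the pathway were taken from 7 lists holding 93 genes, and each gene was represented by its brightest probe set on an array type. On MOE430A 48 of 83 annotated genes were above the filter. Of these, 1 was higher in Ad than in Pp by the limma test, beside 0.162% of all probe sets, and 0 were lower, beside 0.00737%. A positive difference was found for 24 of 48, beside 41.1% of all probe sets. The median log2 difference was -0.0012, beside -0.027 over all probe sets. On MOE430B 30 of 38 annotated genes were above the filter. There 0 passed in either direction, beside 0.104% of all probe sets as higher and 0.0074% as lower, and the median was 0.025, beside -0.012. The gene that passed was Shisa2, of a family that holds Frizzleds back in the endoplasmic reticulum in Xenopus, which is also on the list of anterior visceral endoderm markers. Shisa2 read 2091 and 1618 in Ad, against 627 and 578 in Pp, and 699 in the whole embryo, with a log2 difference of 1.23 (limma adjusted p = 0.0312).

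Among co-receptors and partners, Gpc4 had the largest absolute Ad minus Pp difference on both array types, with log2 values of 0.93 on MOE430A (limma adjusted p = 0.0551) and 1.03 on MOE430B (0.102). The co-receptor Lrp6 read 879 and 928 in Ad, against 871 and 793 in Pp, and 917 in the whole embryo, with a log2 difference between Ad and Pp of 0.025 (limma adjusted p = 0.908). For ligands and their secretion, Porcn read 1891 and 1624 in Ad, against 624 and 773 in Pp, and 711 in the whole embryo, with a log2 difference of 1.02 that just missed the threshold (adjusted p = 0.0512). Rspo3, a secreted protein that protects Frizzleds from removal, read 138 and 95.3 in Ad, against 494 and 370.0 in Pp, and 199 in the whole embryo. Its log2 difference of -1.88 had a limma adjusted p of 0.0668. The antagonist Dkk1 read 4258 and 2285 in Ad, against 1208 and 1308 in Pp, and 1919 in the whole embryo on MOE430A, where its log2 difference was 1.10 (adjusted p = 0.250). On MOE430B Dkk1 had the largest difference of the antagonists too, at 1.42 (adjusted p = 0.423). Of the polarity genes, Prickle2 on MOE430B read 340.0 and 281 in Ad, against 169.7 and 129 in Pp, and 285 in the whole embryo, with a log2 difference of 0.94 (limma adjusted p = 0.314). The largest differences of the remaining lists on MOE430A were 0.52 for the transcription factor Tcf7l2, -0.45 for the beta-catenin target Myc and -0.17 for the polarity cadherin Celsr3. On MOE430B they were 0.45 for the target Lef1, 0.35 for the ligand Wnt8b and -0.13 for the kinase Gsk3b. Their limma adjusted p-values lay between 0.126 and 0.8200.

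With Ad and Pp averaged against the whole embryo, 2 of the 48 pathway genes on MOE430A were higher, beside 4.6% of all probe sets. They were Porcn at a log2 difference of 0.60 and Shisa2 at 0.57. Porcn read 1891 and 1624 in Ad, but 624 and 773 in Pp, on either side of the 711 of the whole embryo. Shisa2 read 2091 and 1618 in Ad, but 627 and 578 in Pp, below the 699 of the whole embryo. In the same comparison 2 were lower, beside 5.18%. The lower ones were Wnt4, a ligand of the uterus and kidney, at -1.99 (limma adjusted p = 0.000511), and the polarity gene Prickle1, at -0.74 (0.0124). Wnt4 read 270 and 312 in Ad, 352 and 286 in Pp, and 2069 in the whole embryo. On MOE430B 0 of 30 were higher by limma, beside 0.407% of all, and 2 were lower, the receptor kinase Ror1 at -1.02 (limma adjusted p = 0.0244) and the antagonist Sfrp5 at -1.10 (0.0268). Sfrp5 read 1009 and 872 in Ad, 589 and 582 in Pp, and 1588 in the whole embryo, and so was higher in the whole embryo than in either fragment.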

How the data were processed

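The authors deposited 1 probe set intensity per array on a linear scale, which per the submitters' processing notes came from MAS5. The sources used here give neither its version nor its scaling target. Each array type was fitted alone with limma 3.58.1 in R 4.3.3, leaving out 64 control probe sets. Signals were taken to log2 after adding a pseudocount at their 20th percentile (248 for MOE430A, 10.5 for MOE430B). Probe sets with a mean above the 40th percentile (signal 464 and 37.2) were kept, 13575 of 22626 and 13506 of 22511, and arrays were centred on their medians. The 3-group model had 2 residual degrees of freedom. Tests were two-sided, adjusted by Benjamini-Hochberg over all kept probe sets, with a threshold of 0.05. Every adjusted p is limma's. Folds are on the log2(signal + pseudocount) scale and understate changes at low signal. No counts underlie array values, and the number of arrays limits their precision.

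All Frizzled probe sets are named. From the pathway lists, genes past the threshold and the largest Ad minus Pp differences are named, along with the 5 nearest profiles of each Frizzled that passed. Lrp6, Hand2, Smo, Dvl1, Axin2 and Fzd10os were singled out after their values were seen. Members and lists were chosen with earlier results of these data known. Annotated symbols of all 10 genes matched RefSeq by gene ID. The method was tested on simulated data. The alternatives were other scalings, pseudocounts and filters, an intensity trend, a replicate block and leaving out each replicate.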

Additional observations from a re-analysis of the deposited data

How the results depend on the processing

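Without a replicate, a lone array was assumed to vary like the others. Among all probe sets, Ad against Pp gave 23 calls on MOE430A, but 46 with no centring. On MOE430B it gave 15, but 29 with the larger pseudocount, 2 with no filter, 26 with the 60th percentile filter and 30 with an intensity trend. With no filter, MOE430B gave 196 calls against 299 for fragments against whole embryo, 143 against 301 for Ad and 157 against 238 for Pp. With a replicate block, Ad against Pp on MOE430B gave 29 calls. Deviations of same-numbered arrays correlated at -0.242 on MOE430A and -0.0392 on MOE430B, so the numbers were not taken to pair the arrays, and the block ended no Frizzled call. A crossed pairing, added after seeing the data, gave 47 calls on MOE430A and 27 on MOE430B.

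Frizzled calls in Ad against Pp on MOE430A numbered 0 with the larger pseudocount, with no filter and with the 60th percentile filter, which removed Fzd8 itself. On MOE430B they numbered 0 with no filter, where Fzd5 had an adjusted p of 0.0584. Ad against whole embryo on MOE430A gave 1 with the 60th percentile filter. Leaving out 1 replicate gave 0 to 5 Frizzled calls on MOE430A and 0 to 1 on MOE430B in Ad against Pp. It gave 0 to 5 and 1 to 3 for fragments against whole embryo, 0 to 5 and 0 to 2 for Ad, and 0 to 2 and 1 to 2 for Pp. Over all probe sets these ranges were 1 to 867 and 0 to 131 for Ad against Pp, and 272 to 3515 and 91 to 1137 for fragments against whole embryo. They were 184 to 3323 and 31 to 923 for Ad against whole embryo, and 240 to 2919 and 78 to 968 for Pp.

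Alternatives were followed for every kept member in Ad minus Pp, but against the whole embryo only for the 5 probe sets past the threshold in such a comparison. Within these, signs turned for members near 0 in log2 difference, all in Ad minus Pp except 1. With no centring Fzd6 1417301_at was 0.042, Fzd4 1419301_at 0.047, Fzd3 1449730_s_at 0.061 and Fzd3 1450135_at 0.032, and Fzd5 1422937_at in Pp minus whole embryo was -0.012. With quantile normalization Fzd4 1419301_at was 0.00038, Fzd3 1449730_s_at 0.016 and Fzd3 1434788_at -0.017. Cyclic loess gave Fzd4 1419301_at 0.010 and Fzd3 1449730_s_at 0.023. No filter gave Fzd6 1417301_at 0.0028, Fzd4 1419301_at 0.0071 and Fzd3 1449730_s_at 0.021. Leaving out a replicate gave -0.072 to 0.096 for Fzd2 1418534_at, -0.20 to 0.21 for Fzd3 1434788_at, -0.042 to 0.026 for Fzd3 1449730_s_at, -0.073 to 3.3e-05 for Fzd3 1450135_at, -0.11 to 0.066 for Fzd4 1419301_at, -0.14 to 0.089 for Fzd6 1417301_at and -0.081 to 0.15 for Fzd9. Except where the alternative's construction shows it, as with fewer arrays or more probe sets tested, the cause was not tested.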

Other observations

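Fzd10os, a transcript named for the strand opposite Fzd10, has its own probe sets and was not counted among the receptors. On MOE430B its probe set 1441338_at read 552 and 554 in Ad, against 259.6 and 483 in Pp, and 506 in the whole embryo, so that Pp replicate 3 was the lowest array. Its log2 difference of 0.55 between Ad and Pp had a limma adjusted p of 0.529. The other Fzd10os probe set, 1444013_at, read 157.6 and 147 in Ad, against 124.6 and 167 in Pp, and 148 in the whole embryo. There the log2 difference was -0.0043 (limma adjusted p = 0.995).

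Smo, a Hedgehog transducer with a Frizzled-type extracellular domain, read 1338 and 1339.7 in Ad, against 1226 and 1176 in Pp, and 1338 in the whole embryo on MOE430A. Its log2 difference between Ad and Pp was 0.063, with a limma adjusted p of 0.729. Dvl1, a Dishevelled gene that acts just below the receptors, read 1644 and 1520.1 in Ad, against 1155 and 1592 in Pp, and 1628 in the whole embryo. Axin2, a widely used target of beta-catenin, read 1295 and 1193 in Ad, against 1422 and 1418 in Pp, and 1518 in the whole embryo. Both Ad arrays were below both Pp arrays for Axin2, beside 12.2% of all probe sets, and its log2 difference of -0.23 had a limma adjusted p of 0.342. Of the listed beta-catenin targets above the filter, 1 of 4 on MOE430A had a positive Ad minus Pp difference, beside 41.1% of all probe sets. On MOE430B this held for 2 of 2, beside 47.7%.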
